A study of Mus musculus with 18 samples.

Results

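The Gs-coupled designer receptor rM3Ds was compared with the control protein EGFP in cultured mouse cortical astrocytes after 90 min of the ligand deschloroclozapine (DCZ). The comparison takes the 3 rM3Ds libraries and the 3 EGFP libraries of the 90 min experiment, 6 of the 18 RNA-seq libraries of the series, by their labels. The cells were grown in medium with serum, transfected with a plasmid for rM3Ds or for EGFP, and given 8 µM DCZ for 90 min at 7 days after transfection. Both groups therefore share the transfection, the serum and the ligand. No group carried rM3Ds without DCZ, so effects of its stimulation and of its mere presence cannot be told apart. Transfection reaches part of the cells of a dish, and the labels give neither that share nor the promoter of the plasmids. The other 2 receptors of the 90 min experiment, hM3Dq and hM4Di, had 3 libraries each and were used here for the common estimate of the spread and for a few contrasts.

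A DREADD is a muscarinic receptor altered so that a synthetic drug, and no longer acetylcholine, activates it, and rM3Ds couples to the stimulatory G protein Gs. Gs activates adenylyl cyclases, which make cyclic AMP (cAMP), and cAMP frees the catalytic subunits of protein kinase A (PKA). PKA phosphorylates the transcription factor CREB, which binds the palindrome TGACGTCA or its half-site TGACG in the promoters of responsive genes, among them those of the Nr4a nuclear receptors, Fos and Crem. Phosphodiesterases break cAMP down again, and RGS proteins, receptor kinases and arrestins limit signalling at the receptor. In astrocytes cAMP is known for the breakdown of glycogen and the secretion of trophic factors.

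The secreted neuropeptide precursor Vgf and the nuclear receptor Nr4a2 rose with rM3Ds by edgeR's quasi-likelihood test. These were the 2 genes called, at an adjusted p below 0.05, of 13584 tested, or 0.0147% of them, and none was called lower. The libraries rM3Ds 2, rM3Ds 3 and EGFP 1 share a separate expression state, and a fit with a term for that state called the same 2 genes (again 0.0147%). Levels are given in counts per 1e6 counts (CPM) in the order of libraries 1, 2 and 3, fold changes are log2 ± SE, and adjusted p-values are from edgeR's quasi-likelihood test unless another tool is named. Without the term 407 genes had an unadjusted p under 0.05 and a fold change above 0 (3% of those tested) and 168 one below 0 (1.24%). With the term these were 521 (3.84%) and 371 (2.73%). DESeq2 called more genes, 51 higher (0.375%) and 5 lower (0.0368%) without the term, 0.412% in all. With the term it called 60 higher (0.442%) and 9 lower (0.0663%), 0.508% in all. With limma-voom 2 were higher and 0 lower without the term, and 12 (0.0883%) and 4 (0.0294%) with it, 0.118% in all. Below, "called" refers to edgeR's test, and DESeq2's calls are given beside the lists in which it made more.

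Vgf (Entrez 381677), the precursor of secreted neuropeptides that cAMP and growth factors induce in neural cells, was at 7.19, 6.21 and 7.28 CPM with rM3Ds and at 0.426, 0.744 and 0.461 CPM with EGFP. All 3 rM3Ds libraries lay far above all 3 EGFP libraries, and the libraries of the separate state did not differ from the others of their group in this. Vgf rose by 3.66 ± 0.27 without the term (adjusted p = 0.000458) and by 3.73 ± 0.27 with it (adjusted p = 0.000213). Its level with EGFP rests on 9, 13 and 8 counts, against 126, 112 and 117 with rM3Ds, so the size of the fold is less certain than its direction. Nr4a2 (18227), an orphan nuclear receptor and immediate-early transcription factor, was at 25.7, 28.4 and 30.9 CPM with rM3Ds and at 5.82, 9.55 and 8.47 CPM with EGFP. The groups did not overlap, and EGFP 1 was the lowest library. Nr4a2 rose by 1.84 ± 0.17 without the term (adjusted p = 0.00203) and by 1.90 ± 0.18 with it (adjusted p = 0.00169). Within the separate state (rM3Ds 2 and 3 minus EGFP 1) the log2 difference was 3.68 for Vgf and 2.33 for Nr4a2, and between the other libraries (rM3Ds 1 minus EGFP 2 and 3) it was 3.39 and 1.50. When only these latter libraries of the groups were kept, Vgf stood at 3.55 (adjusted p = 0.0539) and Nr4a2 at 1.50 (adjusted p = 0.084), where the spread of the lone rM3Ds library is taken from the other groups.

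**Figure D1:**
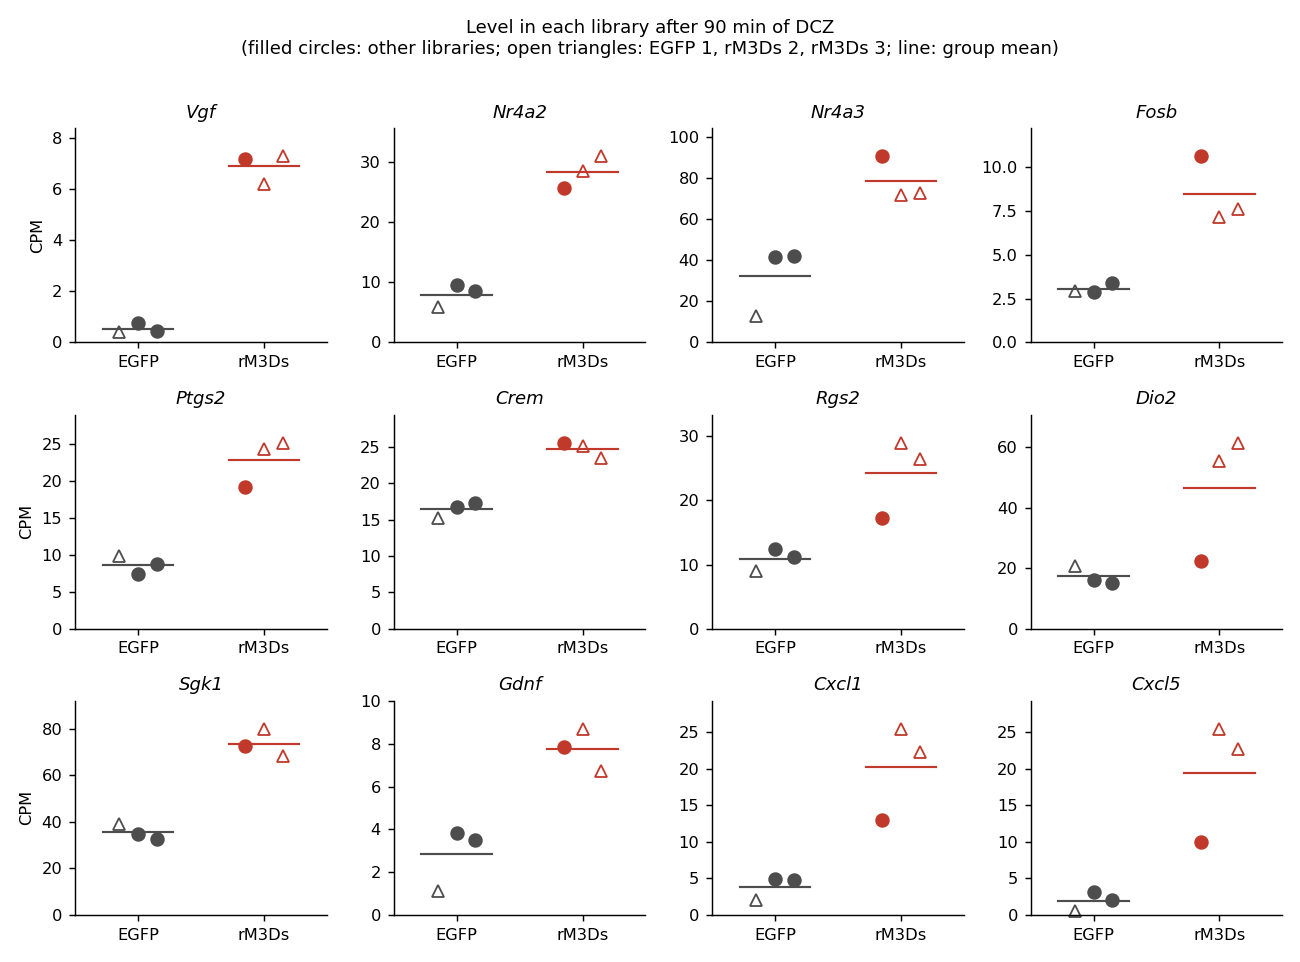
Level in CPM (linear axes from 0) of 12 genes named in the text in each EGFP library (grey) and each rM3Ds library (red), ordered 1 to 3 from left to right, with the group mean as a line. Open triangles are the 3 libraries of the separate state. In each panel the 3 rM3Ds libraries lie above the 3 EGFP libraries. Of these genes edgeR called Vgf and Nr4a2, while DESeq2 called all 12 in both fits. Nr4a2, Ptgs2, Rgs2, Dio2, Cxcl1 and Cxcl5 are lower in rM3Ds 1 than in rM3Ds 2 and 3.

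The separate state was by far the main difference among the 12 libraries of the experiment. The first principal component of log2 CPM held 52.5% of the variance and placed EGFP 1 at -65.5, rM3Ds 2 at -53.3 and rM3Ds 3 at -54.9, with the other 9 libraries between -8.63 and 25.5. The state's own coefficient was called for 2992 genes, 22% of those tested. Cell cycle genes followed it. Centred on the 12-library mean of each gene, the 38 members had a median log2 level of 1.96 for EGFP 1 and of 1.22 and 1.07 for rM3Ds 2 and 3. For rM3Ds 1 it was -0.80, and for EGFP 2 and 3 it was -0.64 and -0.93. Total counts were 16.1 to 21.5 M in the 6 libraries. The labels name no batch, and the origin of the state was not tested. It is carried by 2 of the 3 rM3Ds libraries and 1 of the 3 EGFP libraries, so results are given with and without the term.

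Since CREB acts through known sequence elements, the promoter windows of 4 genes whose levels are described here are shown with these elements marked. The windows are the 250 bases before the annotated start, from RefSeq on GRCm38.p6, read in the direction of transcription, with every TGACG, its reverse complement CGTCA, or the full TGACGTCA in capitals.
Nr4a2 (chr2:57124004-57124253, minus strand): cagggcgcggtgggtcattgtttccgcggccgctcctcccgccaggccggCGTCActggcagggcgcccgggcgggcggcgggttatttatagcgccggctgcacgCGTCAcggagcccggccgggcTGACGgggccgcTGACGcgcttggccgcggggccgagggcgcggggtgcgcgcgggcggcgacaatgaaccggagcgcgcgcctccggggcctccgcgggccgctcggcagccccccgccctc
Nr4a3 (chr4:48045055-48045304, plus strand): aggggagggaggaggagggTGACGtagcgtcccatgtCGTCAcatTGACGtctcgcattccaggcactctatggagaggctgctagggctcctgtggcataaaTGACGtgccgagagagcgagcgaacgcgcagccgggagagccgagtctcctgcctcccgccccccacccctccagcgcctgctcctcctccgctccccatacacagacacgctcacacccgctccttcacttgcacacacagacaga
Dio2 (chr12:90739039-90739288, minus strand): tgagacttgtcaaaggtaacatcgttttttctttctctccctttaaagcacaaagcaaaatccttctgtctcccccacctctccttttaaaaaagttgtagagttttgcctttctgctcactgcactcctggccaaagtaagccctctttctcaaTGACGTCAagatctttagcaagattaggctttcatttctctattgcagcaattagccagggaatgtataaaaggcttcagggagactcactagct
Fos (chr12:85473640-85473889, plus strand): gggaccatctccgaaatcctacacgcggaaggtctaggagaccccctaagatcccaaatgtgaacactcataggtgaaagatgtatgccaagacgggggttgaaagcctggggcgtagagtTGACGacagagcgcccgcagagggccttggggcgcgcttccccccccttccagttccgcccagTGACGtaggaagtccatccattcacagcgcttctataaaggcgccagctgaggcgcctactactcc
Nr4a2 and Nr4a3 hold 4 half-sites each, Fos holds 2, and Dio2 holds the full palindrome. On either strand, the palindrome occurs in 1.55% of all 32851 promoter windows of the table and the half-site, which is also part of every palindrome, in 17.8%. Among the 10757 tested genes with a window, 3% hold the palindrome and 29.6% the half-site. Of the 40 tested genes of the cAMP-CREB list described next, 25 have a window, of which 5 hold the palindrome (20%) and 20 the half-site (80%). A match describes these letters alone, and many members entered the list as known CREB targets. The 4 windows shown all hold an element, but other members do not follow this. The windows of Ptgs2 and Inhba, also higher with rM3Ds, hold none. That of Scg2, at -1.45 with the term, holds the palindrome.

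Genes known to respond to cAMP and CREB leaned towards higher levels with rM3Ds. Of the 43 genes of this list 40 passed the filter on low counts, and Sst, Pck1 and Crh did not, with Pck1 and Crh at 0 in all 6 libraries. Vgf and Nr4a2 were called by edgeR and 38 members did not pass. DESeq2 called 10 members higher without the term (against 0.375% of all genes), among them Ptgs2 (adjusted p = 0.00015), Crem (0.000154), Rgs2 (0.000207), Fosb (0.00605), Dio2, Nr4a3, Atf3 and Inhba. With the term it called 13 higher (against 0.442%), with Fos, Cebpd and Nfil3 added, and Bdnf lower (against 0.0663%). Fold changes were above 0 for 32 of the 40 without the term (80%, against 45.5% of all genes) and for 31 with it (77.5%, against 46.9%). The median was 0.35 without the term and 0.34 with it, against -0.02 and -0.01 over all genes. Without the term 18 members had an unadjusted p under 0.05 and a fold change above 0 (45%, against 3% of all genes). None had such a p and a fold change below 0 (against 1.24%). With the term these were 18 (45%, against 3.84%) and 5 (12.5%, against 2.73%), so both shares were then above those of all genes. All 3 rM3Ds libraries lay above all 3 EGFP libraries for 17 members (42.5%, against 3.9% of all genes), and none lay below in all (against 3.61%). Within both states 25 members had a difference above 0 (62.5%, against 23.5%) and 3 had one below 0 (7.5%, against 25.8%). Without EGFP 1 the median was 0.61 in the fit without the term. That fit then sets rM3Ds libraries of both states against EGFP libraries of 1 state. With the term, single libraries left out gave medians of 0.249 to 0.365. Without all 3 libraries of the separate state, and with no term, the median was 0.24, with 34 of 40 above 0.

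**Figure D2:**
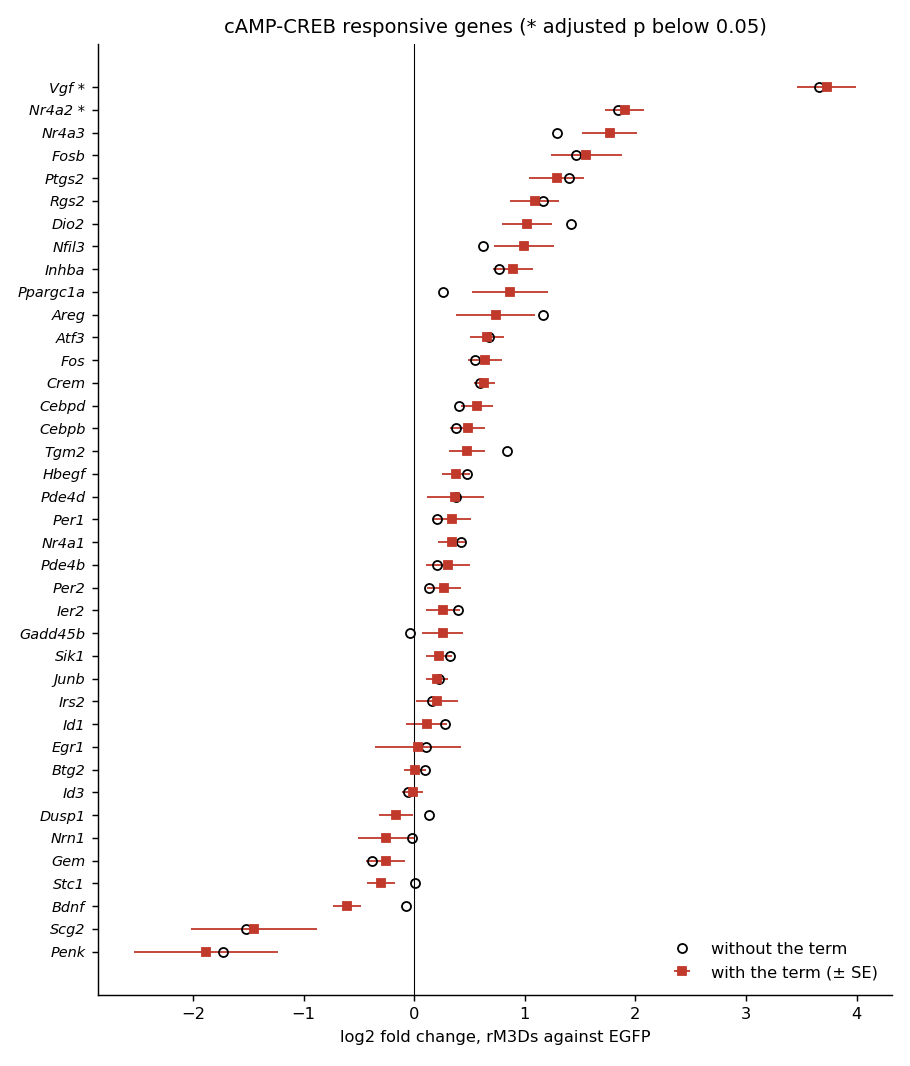
Log2 fold change of rM3Ds against EGFP for 39 of the 40 tested cAMP-CREB responsive genes, with the term for the separate state (red squares, bars ± SE) and without it (open circles), ordered by the former. Vgf at 3.73 and Nr4a2 at 1.90 carry asterisks for an adjusted p below 0.05, and Penk at -1.88 and Scg2 at -1.45 stand lowest.

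The transcription factors of the list come first. Nr4a3 (18124), the sister receptor of Nr4a2, was at 90.6, 71.7 and 72.8 CPM with rM3Ds and at 12.9, 41.3 and 42.2 CPM with EGFP. The groups did not overlap, but EGFP 1 was far below the other 2 controls. Its fold change was 1.29 ± 0.35 without the term (adjusted p = 0.614) and 1.77 ± 0.25 with it (adjusted p = 0.0621), neither of which passed. Nr4a1 (15370), the third receptor of the family, was at 149, 168 and 153 CPM against 144, 111 and 95.7 CPM (0.42 ± 0.15 and 0.34 ± 0.13, not called). The rM3Ds libraries of Nr4a1 lay above the EGFP libraries by a small margin over EGFP 1. Crem (12916), which encodes cAMP-responsive activators and the inducible repressor ICER, was at 25.6, 25.2 and 23.5 CPM against 15.2, 16.8 and 17.2 CPM. Its values were the most even of these genes within each group, and its fold change of 0.59 ± 0.09 missed the threshold (adjusted p = 0.195), as did that of 0.63 ± 0.10 with the term (adjusted p = 0.0629). The AP-1 subunit Fosb (14282) was at 10.6, 7.15 and 7.60 CPM against 2.93, 2.86 and 3.40 CPM (1.46 ± 0.32 and 1.56 ± 0.32, adjusted p = 0.372 and 0.197). Fos (14281) was at 18.5, 21.3 and 18.9 CPM against 10.0, 14.9 and 15.3 CPM (0.55 ± 0.15 and 0.64 ± 0.15, adjusted p = 0.621 and 0.321). For both genes all 3 rM3Ds libraries were above all 3 EGFP libraries. Egr1, an immediate-early factor driven mainly by the ERK pathway, overlapped between groups, at 12.6, 12.2 and 8.84 CPM against 16.7, 7.78 and 6.63 CPM (0.11 ± 0.42 and 0.03 ± 0.39).

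Further factors of the list had small fold changes that were not called. Atf3, a stress-inducible factor, was at 12, 14.5 and 10.5 CPM against 7.85, 8.01 and 7.38 CPM, without overlap (0.67 ± 0.14 and 0.66 ± 0.15). Nfil3, which opposes the clock output factors, was at 26.2, 20.9 and 19.1 CPM against 6.91, 18.8 and 17.5 CPM, so that its fold of 0.62 ± 0.34, or 0.99 ± 0.27 with the term, leans on the low value in EGFP 1. The factors Cebpb and Cebpd, which cAMP induces in many cell types, stood at 0.38 ± 0.16 and 0.41 ± 0.17, and at 0.48 ± 0.16 and 0.57 ± 0.15 with the term. In both, EGFP 1 again gave the lowest level. Junb stood at 0.22 ± 0.09 and the clock genes Per1 and Per2, named as classic CREB targets, at 0.20 and 0.13. Ppargc1a, a coactivator of mitochondrial genes, was at 13.5, 9.98 and 12.5 CPM against 2.89, 13.2 and 14.1 CPM. Its fold with the term was 0.87 ± 0.35, and without EGFP 1 it was -0.01.

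Enzymes, signalling proteins and secreted factors of the list included several with group ranges that did not meet. Ptgs2 (19225), the inducible cyclooxygenase of prostaglandin synthesis, was at 19.2, 24.3 and 25.2 CPM against 9.89, 7.38 and 8.70 CPM. Its fold change was 1.40 ± 0.25 (adjusted p = 0.2) and 1.29 ± 0.25 with the term (adjusted p = 0.182). The difference was 1.31 within the separate state and 1.25 between the other libraries. Rgs2 (19735), which limits signalling through G proteins, was at 17.3, 29.0 and 26.4 CPM against 8.99, 12.4 and 11.1 CPM (1.17 ± 0.20 and 1.09 ± 0.22, adjusted p = 0.2 and 0.197). Dio2 (13371), the deiodinase with which astrocytes activate thyroid hormone, was at 22.4, 55.3 and 61.5 CPM against 20.8, 16 and 15.2 CPM. Here rM3Ds 1 lay just above EGFP 1, and the high level was that of rM3Ds 2 and 3. The fold of Dio2 was 1.42 ± 0.32, and 1.02 ± 0.23 with the term (adjusted p = 0.427 and 0.241). Inhba (16323), the activin A subunit, was at 104, 86.9 and 103 CPM against 44.2, 67.8 and 61.4 CPM (0.76 ± 0.19 and 0.89 ± 0.18, adjusted p = 0.547 and 0.197). Tgm2, a transglutaminase, was at 112, 259 and 264 CPM against 141, 110 and 105 CPM, with rM3Ds 1 inside the range of the controls. Hbegf, a ligand of the EGF receptor, stood at 0.48 ± 0.17 without the term and 0.37 ± 0.13 with it, and Sik1, a kinase that cAMP induces and that restrains CREB coactivators, at 0.32 ± 0.13 and 0.23 ± 0.12.

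Of the members with fold changes below 0, Penk and Scg2 followed EGFP 1. Penk, the enkephalin precursor, was at 0.855, 2.11 and 2.99 CPM with rM3Ds and at 18.2, 0.973 and 0.461 CPM with EGFP. Scg2, the secretogranin precursor, was at 7.58, 11.1 and 12.2 CPM against 75.0, 7.04 and 6.22 CPM. In both genes EGFP 1 stood far above the other 5 libraries. Their folds with the term were -1.88 ± 0.65 and -1.45 ± 0.57, and without EGFP 1 they were 0.26 and 0.20. Bdnf, the neurotrophin, differed by state first, at 6.27, 23.6 and 21.1 CPM with rM3Ds and 34.8, 8.87 and 9.68 CPM with EGFP. Its fold was -0.07 ± 0.54 without the term and -0.61 ± 0.12 with it (adjusted p = 0.197), with differences of -0.64 and -0.56 within the states. Stc1, a secreted glycoprotein of calcium and phosphate balance, stood at -0.30 ± 0.13 with the term and overlapped between groups. Areg, another EGF receptor ligand, chosen after its values were seen, was at 2.68, 37.2 and 30.7 CPM against 30.2, 0.629 and 0.403 CPM, so that the state outweighed the group.

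**Figure D3:**
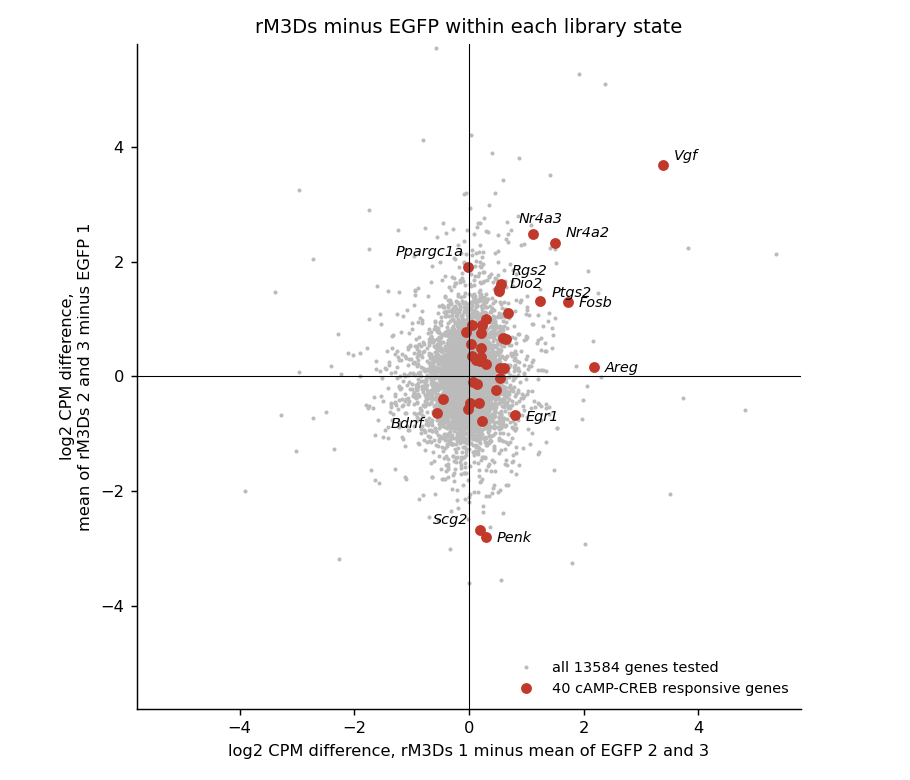
Each gene's log2 CPM difference between rM3Ds 1 and the mean of EGFP 2 and 3 (horizontal) and between the mean of rM3Ds 2 and 3 and EGFP 1 (vertical), for all 13584 genes tested (grey) and the 40 cAMP-CREB responsive genes (red), with 1 gene outside the axes. Vgf, Nr4a2, Nr4a3, Fosb and Ptgs2 lie above 1 on both axes, while Penk and Scg2 are low on the vertical axis alone and Areg is high on the horizontal axis alone.

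The components of the cAMP pathway itself had no called gene. Of 30 genes of Gs, adenylyl cyclases, PKA and its anchoring proteins 26 were tested, and their median was -0.08 in both fits. Fold changes were above 0 for 6 without the term (23.1%, against 45.5% of all genes) and for 9 with it (34.6%, against 46.9%). None had an unadjusted p under 0.05 without the term, and 3 had one with the term, all below 0 (11.5%, against 2.73%). These were Pkia, an inhibitor of PKA, at -0.39 ± 0.14, Akap12, a PKA anchoring protein, at -0.44 ± 0.16, and Adcy8, an adenylyl cyclase, at -0.77 ± 0.33 and 0.855 to 4.02 CPM. Among 13 tested of 16 phosphodiesterases, the median was 0.20 without the term and 0.13 with it. Pde4a, which degrades cAMP, was at 25.2, 17.4 and 18.4 CPM with rM3Ds and 26.8, 28.9 and 25.4 CPM with EGFP, with all rM3Ds libraries below the EGFP libraries (-0.41 ± 0.15 and -0.34 ± 0.14, not called). Pde4b and Pde4d, which cAMP induces in many cells, stood at 0.20 and 0.38 without the term. Pde3b and Pde3a stood at 0.82 ± 0.39 and 1.46 ± 0.62 without the term and at 0.44 ± 0.20 and 0.67 ± 0.44 with it. Both were higher in rM3Ds 2 and 3 than in any other of the 6 libraries. Of 17 CREB family factors, coactivators and SIK kinases none was called and the median was -0.03 and -0.05, with Crem and Sik1 the members with an unadjusted p under 0.05 without the term. Rgs2 was the member with such a p among the 17 tested of 22 genes of receptor desensitisation, whose median was 0.02 in both fits. DESeq2 called Crem and Rgs2 of these lists, in both fits (against 0.412% and 0.508% of all genes).

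Immediate-early genes, the regulators that cells induce within minutes without new protein synthesis, also leaned higher. All 37 were tested, 1 was called (Nr4a2), and the median was 0.39 without the term and 0.33 with it. In either fit 32 had a fold above 0 (86.5%, against 45.5% and 46.9% of all genes). In each fit 16 had an unadjusted p under 0.05 and a fold above 0 (43.2%, against 3% and 3.84% of all genes). DESeq2 called 8 members higher without the term and 9 with it (against 0.375% and 0.442% of all genes). The list shares 12 genes with the cAMP-CREB list, so their counts are not independent. Sgk1 (20393), a kinase induced by serum and hormones, was at 72.5, 79.9 and 68.2 CPM with rM3Ds and 39.0, 34.7 and 32.4 CPM with EGFP. Its groups did not overlap in either state, and the fold of 1.05 ± 0.19, or 1.02 ± 0.20 with the term, was not called (adjusted p = 0.2 and 0.182). Of 3 further members, chosen after their values were seen, Fosl2, an AP-1 subunit, stood at 0.89 and 0.83, Myc at 0.67 and 0.70 and Ier3 at 0.66 and 0.58, each without overlap between groups and not called. In the fit without the term the list's median was 0.65 without EGFP 1 and 0.52 without the 3 libraries of the separate state. With the term, single libraries left out gave medians of 0.168 to 0.536. The median was 0.15 within the separate state and 0.53 between the other libraries.

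Secreted growth and neurotrophic factors had 39 of 43 members tested, of which Vgf was called, with a median of 0.13 and 0.12. Gdnf (14573), a survival factor for dopaminergic neurons, was at 7.87, 8.70 and 6.72 CPM against 1.14, 3.83 and 3.51 CPM. The groups did not overlap and EGFP 1 was lowest, with folds of 1.46 ± 0.38 and 1.8 ± 0.35 (adjusted p = 0.573 and 0.182 by edgeR). DESeq2 called 3 members of this list higher without the term (against 0.375% of all genes), Gdnf, Inhba and Vgf. With the term it called 4 higher (against 0.442%) and 1 lower (against 0.0663%). Inhba was next in the fit with the term, as given above. Genes of glycogen, glycolysis and lactate transport had no called member among 35 and a median of 0.09 in both fits. With the term DESeq2 called 1 of them, Pfkl (against 0.508% of all genes). The glycolytic enzymes Pfkl, Ldhb and Aldoc stood at 0.53 ± 0.14, 0.45 ± 0.13 and 0.74 ± 0.23 with the term, but at 0.31 ± 0.21, 0.25 ± 0.18 and 0.18 ± 0.40 without it, and in each of them EGFP 1 was the lowest of the 6 libraries.

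The CXC chemokines Cxcl1 and Cxcl5 had folds of over 2 on the log2 scale that edgeR did not call and DESeq2 did. Cxcl1 (14825), which attracts neutrophils, was at 13.0, 25.4 and 22.3 CPM with rM3Ds and 1.99, 4.86 and 4.78 CPM with EGFP. Cxcl5 (20311), of the same function, was at 9.92, 25.4 and 22.7 CPM against 0.520, 3.09 and 2.07 CPM. In both genes rM3Ds 1 was the lowest rM3Ds library and still above every control. Cxcl1 stood at 2.39 ± 0.40 without the term and 2.39 ± 0.45 with it (adjusted p = 0.2 and 0.176), and Cxcl5 at 3.36 ± 0.59 and 3.33 ± 0.63 (adjusted p = 0.2 and 0.18), none of which passed by edgeR. By DESeq2 Cxcl1 and Cxcl5 passed without the term (adjusted p = 3.26e-06 and 1.62e-06) and with it (4.79e-07 and 0.000157), and edgeR with the replicate number as a block called both in both fits. With the term the folds without EGFP 1 were 1.44 for Cxcl1 and 1.95 for Cxcl5, and without rM3Ds 1 they were 3.60 and 5.53, where edgeR called both. Of the 26 tested of 38 chemokine and inflammatory genes none was called by edgeR. DESeq2 called 4 in each fit (against 0.412% and 0.508% of all genes). Fold changes were above 0 for 20 without the term (76.9%, against 45.5%) and for 23 with it (88.5%, against 46.9%). With the term 15 had an unadjusted p under 0.05 and a fold above 0 (57.7%, against 3.84%). The median was 0.26 without the term and 0.48 with it. Without EGFP 1 the median was 0.11 and 0.29 in the same order.

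Homeostatic and reactive astrocyte genes had no member called by edgeR. Of 25 tested homeostatic astrocyte genes DESeq2 called 2 without the term (against 0.412% of all genes), Glul and S100b. With the term it called 1 (against 0.508%). The median was 0.18 without the term and 0.35 with it. Fold changes were above 0 for 17 without the term (68%, against 45.5% of all genes) and for 21 with it (84%, against 46.9%). By edgeR 4 had an unadjusted p under 0.05 and a fold above 0 without the term (16%, against 3%). With the term 11 had (44%, against 3.84%). Within both states 16 had a difference above 0 (64%, against 23.5%), so this list leaned higher as well. Glul, glutamine synthetase, was at 148, 163 and 160 CPM against 114, 133 and 126 CPM, without overlap (0.34 ± 0.09 and 0.35 ± 0.10, adjusted p = 0.577 and 0.417). S100b (20203), a calcium-binding protein of astrocytes, was at 3.25, 94.5 and 87.1 CPM against 8.32, 2.40 and 1.84 CPM. Its high level belonged to rM3Ds 2 and 3 and not to rM3Ds 1 or EGFP 1, so that its folds of 3.86 ± 0.98 and 2.40 ± 0.53 (adjusted p = 0.573 and 0.239) rest on those libraries. Apoe, the main lipid carrier of astrocytes, was at 707, 161 and 140 CPM against 93.7, 533 and 541 CPM, with its 3 lowest levels in the libraries of the separate state (-0.21 ± 0.67 and 0.54 ± 0.15). Of 37 tested reactive astrocyte genes DESeq2 called 2 without the term and 4 with it (against 0.412% and 0.508% of all genes). Their median was 0.05 and 0.20. Ptx3 (19288), a secreted pattern recognition protein, was at 79.8, 62.3 and 53.2 CPM against 19.3, 46.0 and 47.7 CPM (0.79 ± 0.28 and 1.16 ± 0.17, adjusted p = 1.00 and 0.0629). Cd14, a receptor for bacterial lipopolysaccharide, was at 17.3, 30.9 and 27.6 CPM against 15.8, 11.3 and 11.2 CPM (0.99 ± 0.21 and 0.76 ± 0.13, adjusted p = 0.364 and 0.111).

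Interferon-stimulated genes leaned lower without a called gene. Of 32 members 29 had a fold below 0 in either fit, with a median of -0.22 and -0.20, and 28 were below 0 within both states (87.5%, against 25.8% of all genes). Bst2, which tethers enveloped viruses, was at 595, 527 and 458 CPM with rM3Ds and 741, 618 and 608 CPM with EGFP (-0.32 ± 0.14 in both fits). Oas1a and Trim25, both of antiviral RNA sensing, stood at -0.49 ± 0.17 and -0.41 ± 0.17 with the term, with EGFP 1 the highest library for each. Without EGFP 1 the median was -0.15 and -0.12, and these genes are induced together, so the count is not that of independent genes. Cell cycle genes had a median of 0.03 without the term and -0.38 with it, with 26 and none of 38 above 0. Their level followed the state, whose own coefficient had a median of 2.48 over the list, and without EGFP 1 the median was 1.54 and -0.05 in the same order. Clock genes and heat shock genes had medians of -0.04 and 0.02 without the term and no called member. Of the clock genes, Bhlhe40, Nfil3 and Rorb had the smallest p with the term, where Bhlhe40 stood at 0.56 ± 0.14 and Rorb at 0.78 ± 0.23, and DESeq2 called Bhlhe40 and Nfil3.

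**Figure D4:**
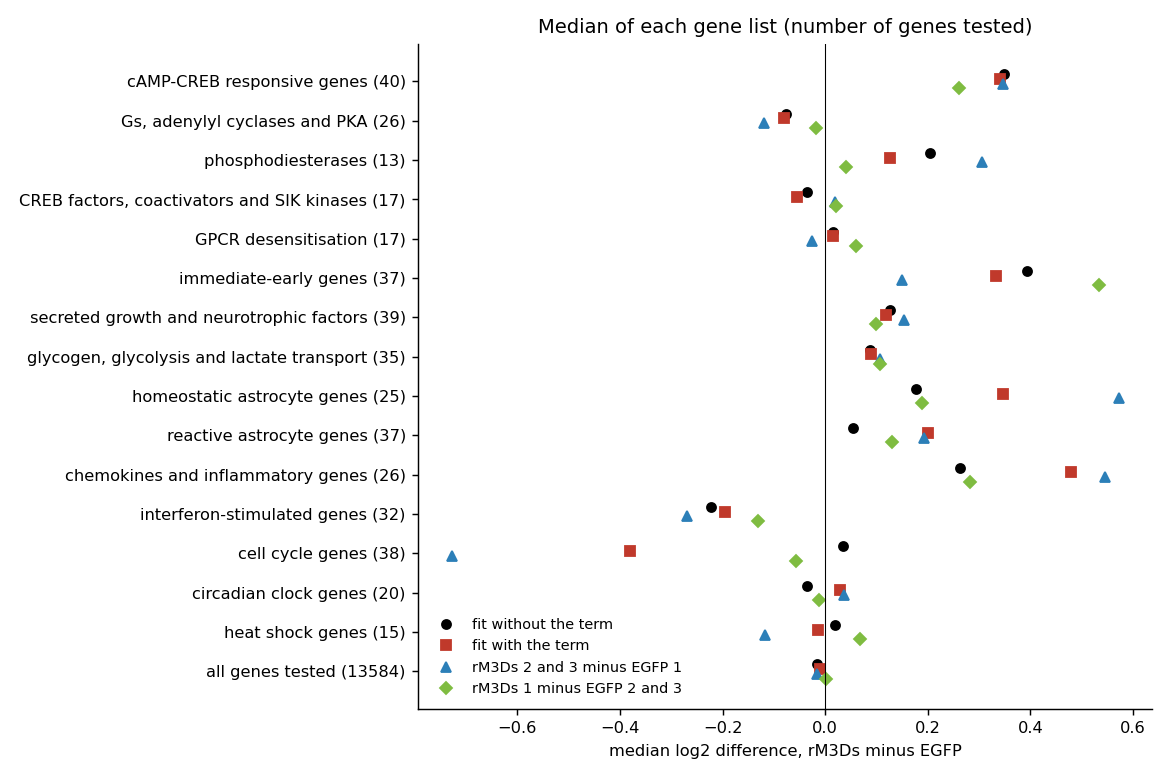
Median log2 difference of rM3Ds minus EGFP over the tested members of each gene list, by the fit without the term (black circles), with it (red squares), within the separate state (blue triangles) and between the other libraries (green diamonds). The cAMP-CREB and immediate-early lists lie above 0 and the interferon-stimulated list below 0 by all 4 measures. So do the chemokine, homeostatic, reactive, secreted factor, glycogen and phosphodiesterase lists above 0. The list of Gs, adenylyl cyclases and PKA lies below 0 by all 4. Cell cycle genes move from 0.03 to -0.38 with the term.

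Other genes with small p-values in the fit with the term, and the same sign within both states, were not called by edgeR. Errfi1, a feedback inhibitor of the EGF receptor, was at 87.8, 46.5 and 39.4 CPM against 27.1, 43.7 and 44.8 CPM. The groups overlap, but each rM3Ds library was above the controls of its own state, and the fold went from 0.59 ± 0.28 to 0.83 ± 0.11 with the term (adjusted p = 1.00 and 0.0546). Enc1, a kelch-family protein that binds actin, was at 148, 198 and 208 CPM against 94.6, 109 and 96.9 CPM (0.88 ± 0.13 and 0.81 ± 0.13, adjusted p = 0.117 and 0.1). On the lower side Prickle3, of the planar polarity pathway, was at 4.45, 3.71 and 3.05 CPM against 7.57, 8.18 and 6.80 CPM. Enpp1, an ectoenzyme that makes pyrophosphate, was at 12.2, 9.59 and 11.4 CPM against 21.9, 15.7 and 15.2 CPM. Both were lower in every rM3Ds library than in any control, at -0.96 ± 0.20 and -0.71 ± 0.15 with the term (adjusted p = 0.197 for each). Aspa, which cleaves N-acetylaspartate, was at 5.53, 8.65 and 7.72 CPM against 45.3, 10.6 and 7.66 CPM, so its fold of -1.70 ± 0.30 rests on EGFP 1. The proprotein convertase Pcsk6, Plekhh2, the Gq-family subunit Gna14 and Baiap2l1 stood at -0.55, -0.63, -1.05 and -0.61 with the term, and overlapped between groups. With the term DESeq2 called each gene of this paragraph except Baiap2l1.

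Whether the rM3Ds difference itself depended on the state was tested as an interaction, which called none of 13584 genes (0%). At an unadjusted p under 0.05 this test had 514 genes with an interaction above 0 and 393 with one below 0. Above 0 means a higher signed difference of rM3Ds minus EGFP within the separate state, whatever its size. DESeq2 called 94 genes (0.692%). Nr4a3 had an interaction of 1.37 (unadjusted p = 0.000414, not called), S100b one of 2.83 (unadjusted p = 0.000172, not called) and Vgf one of 0.40 (unadjusted p = 0.501). These contrasts rest on EGFP 1 and on rM3Ds 1 as the lone libraries of their arms.

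The Gq-coupled receptor hM3Dq was measured against the same EGFP libraries, so its comparison is not independent of that of rM3Ds, and all 3 hM3Dq libraries lie outside the separate state. Vgf was at 6.89 ± 0.59 CPM with rM3Ds and 7.08 ± 1.23 CPM with hM3Dq (mean ± SD, n = 3 each), a difference of -0.04 ± 0.23 without the term and 0.10 ± 0.26 with it. That difference was not called (adjusted p = 0.956 and 0.975). For Nr4a2 the levels were 28.3 ± 2.64 and 73.2 ± 9.79 CPM, and it was lower with rM3Ds than with hM3Dq (-1.37 ± 0.16 and -1.26 ± 0.20, adjusted p = 0.00309 and 0.0109). Ptgs2 and Atf3 were likewise lower with rM3Ds than with hM3Dq, at -2.79 ± 0.29 and -2.18 ± 0.18 with the term (adjusted p = 0.00123 and 0.000139). Fos, Fosb, Nr4a1, Junb, Sgk1 and Egr1 were lower too, at -1.31, -1.89, -1.77, -1.10, -1.58 and -2.60 with the term, and called in both fits. Crem, Rgs2 and Dio2 were at 24.7, 24.3 and 46.4 CPM with rM3Ds and at 21.5, 18.4 and 26.7 CPM with hM3Dq, and their differences were not called. Cxcl5 was at 19.4 ± 8.29 CPM with rM3Ds and 2.14 ± 0.62 CPM with hM3Dq, a difference of 3.17 ± 0.58 that was called without the term (adjusted p = 0.038) and not with it (3.11 ± 0.68, adjusted p = 0.0752). In all 91 genes differed between these receptors without the term (0.67%) and 114 with it (0.839%). Against the Gi-coupled hM4Di the called genes were 2 without the term (0.0147%), Vgf and Nr4a2, and 1 with it (0.00736%), Vgf at 2.60 ± 0.27 (adjusted p = 0.0113). The comparison of hM4Di with the same EGFP libraries had no called gene in either fit. Mean levels with EGFP, hM4Di and rM3Ds were 0.543, 1.25 and 6.89 CPM for Vgf and 7.95, 11.2 and 28.3 CPM for Nr4a2. For Fosb they were 3.06, 6.66 and 8.45 CPM, and for Sgk1 35.4, 56.8 and 73.5 CPM. Dio2 went the other way with hM4Di, at 17.3, 11.1 and 46.4 CPM. The differences of Fosb and Sgk1 between rM3Ds and hM4Di were not called in either fit.

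The labels were checked against marker genes. The 9 astrocyte markers had no member called by edgeR, and their median was 0.18 without the term and 0.61 with it. Within both states 8 of them had a difference above 0 (88.9%, against 23.5% of all genes). With the term 6 had an unadjusted p under 0.05 and a fold above 0 (66.7%, against 3.84%). Among astrocyte markers, Aqp4 was at 55.0 to 145 CPM, Aldh1l1 at 47.8 to 93.5 CPM, Slc1a3 at 32.6 to 68.0 CPM and Sox9 at 110 to 318 CPM in the 6 libraries, whereas Gfap was at 3.93, 10.1 and 9.53 CPM with rM3Ds and 23.2, 2.00 and 2.36 CPM with EGFP (-0.23 ± 0.95 and -0.38 ± 0.66, not called). The microglial genes P2ry12, Cx3cr1, Aif1, Ptprc and Itgam were at 0 to 0.187 CPM in the 6 libraries, a range around the floor of 3 counts, which was 0.142 to 0.187 CPM. The 12 microglia markers summed to 2.51 to 2.74 CPM with rM3Ds and 2.94 to 10.8 CPM with EGFP, most of it Tmem119. Neuronal Snap25, Syt1 and Rbfox3 were under 1 CPM, while Map2 was at 122 to 170 CPM and Stmn2 followed the state, at 1.88, 50.05 and 42.4 CPM against 46.7, 3.03 and 2.25 CPM. Col1a1, a fibroblast and mural gene, was at 652 to 1791 CPM. The 13 fibroblast and mural markers summed to 2130 to 3080 CPM with rM3Ds and 2330 to 3090 CPM with EGFP. The 11 oligodendrocyte lineage markers summed to 100 to 120 and 100 to 113 CPM in the same order. For the 9 endothelial markers these sums were 12.6 to 29.7 and 19.6 to 35.7 CPM. The glial progenitor gene Fabp7 was at 3.59, 84.8 and 80.4 CPM against 52.7, 2.92 and 3.69 CPM. The part of these cell types in the results above was not tested, and in bulk RNA fewer cells of a type cannot be told apart from less RNA per cell. Chrm3, the mouse homologue of the receptor's backbone, was at 22.7, 11.1 and 6.97 CPM with rM3Ds and 1.8, 6.29 and 10.1 CPM with EGFP (1.17 ± 0.54 and 1.82 ± 0.28, adjusted p = 1.00 and 0.0629). With the term DESeq2 called Chrm3 (1.85, adjusted p = 3.66e-07), while the levels of the groups overlap. How far reads of the rat sequence in the plasmid reach the mouse gene was not tested, so Chrm3 is no check of the groups.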

How the data were processed

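RNA of 12 samples at 90 min was sequenced as poly-A RNA, per the labels' protocols. The tools fastp 0.23.4 and Salmon 1.8.0 and the build mm39 are listed in the submitters' processing notes. The authors deposited estimated counts for each gene without normalisation (55.9% of values were not whole). How transcripts were summed and whether strand was used are not given in the sources used here, so paralogs and overlapping or antisense genes are uncertain. The counts were rounded to whole numbers. Symbols came from RefSeq's gene table by Entrez number (21978 of 22078 identifiers, and the rest held 0.0325% of counts). The 3-day libraries were not used here.

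The 12 libraries were fitted together with edgeR 4.0.16 (R 4.3.3): quasi-likelihood test, robust dispersion, TMM factors, default filter on low counts, 8 residual degrees of freedom, or 7 with the term for rM3Ds 2, rM3Ds 3 and EGFP 1. P-values were adjusted by Benjamini and Hochberg's method over the 13584 genes tested, and a gene was called below 0.05. CPM use TMM-scaled library sizes, and differences within states are of log2 CPM with a prior count of 2. A floor of 3 counts was 0.119 to 0.187 CPM and covers counting error only. Replicates are not said to be separate cultures, so the spread behind the p-values may be technical in part.

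The comparison, the gene lists and the rule for named genes were chosen with earlier results of these data known. Named were the genes called, the 8 smallest p of each sign with the term, at 1 or more in mean log2 CPM and with 1 sign within both states, members of the cAMP pathway lists with an unadjusted p under 0.05, the 3 smallest p of each other response list, and check and marker genes. The values of 1 list member are not reported here. On simulated counts that held the state, the fit without the term recovered 57% of 2-fold and 79% of 4-fold changes with 1 false of 137 calls. With the term these were 71% and 90%, with 7 false of 168 calls, and for the interaction 15% and 66%, with 3 false of 84 calls (13584 genes each). The simulated means held 1 shared state, without the differences of rM3Ds 2 and 3 alone or of EGFP 1 alone described below. These rates therefore do not cover such differences, which the real libraries hold. Alternatives were DESeq2 1.42.0, limma-voom 3.58.1, other scaling factors, no filter, the 6 libraries alone, a replicate block, and libraries left out.

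Replicates were not duplicates: chi-square per degree of freedom over genes was at least 5.71 within groups. The deviations from group means of same-numbered rM3Ds and EGFP libraries correlated at -0.764 to -0.566. Each such pair holds 1 library of the separate state and 1 outside it. These values therefore cannot decide whether the numbers pair rM3Ds with EGFP. Over all groups 7 of 18 same-numbered pairs correlated at over 0.1.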

Additional observations from a re-analysis of the deposited data

How the results depend on the processing

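Vgf and Nr4a2 kept their direction in every alternative and were called in all but those named here. Without the term 2 genes were called, also by limma-voom, with RLE or upper-quartile factors and with no filter. DESeq2 called 56, including both. With only the 6 rM3Ds and EGFP libraries none was called (Vgf at 3.66, adjusted p = 0.183, and Nr4a2 at 1.84, adjusted p = 0.339). Without the 3 libraries of the separate state none was called, and with only that state for these groups 131 were. With single libraries left out the count ran from 2 to 115, the highest without rM3Ds 1, which leaves rM3Ds libraries of 1 state alone. With the term 2 genes were called, against 69 by DESeq2, 16 by limma-voom, 7 with no filter and 20 with the 6 libraries alone, and 2 to 255 with single libraries left out. The highest was without rM3Ds 1, and without EGFP 3 it was 4. For the interaction none was called, against 94 by DESeq2, 5 with upper-quartile factors, 14 with no filter and 770 with the 6 libraries alone. It cannot be estimated without rM3Ds 1 or EGFP 1, and it was 0 without each other library.

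Whether the replicate numbers pair the libraries could not be decided. With them as a replicate block 4 genes were called without the term (Cxcl1 and Cxcl5 added) and 11 with it. Not every library correlated best with its own number.

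Directions changed for few named genes. Without the term Gfap was at 0.47 by limma-voom, 0.77 with the replicate block, 0.84 without the separate state and -0.69 to 1.86 with single libraries left out. Egr1 was at -0.66 with only the separate state and at -0.13 to 0.65 with single libraries left out, and Pde3a was at -0.19 without the separate state. With the term Egr1 was at -0.055 by limma-voom. Left out singly, libraries gave -0.65 to 0.81 for Egr1, -1.22 to 0.86 for Gfap, -2.82 to 0.26 for Penk, -2.67 to 0.20 for Scg2, -0.0087 to 1.97 for Ppargc1a and -0.17 to 1.32 for Pde3a. The cause of these shifts was not tested, beyond fewer libraries or genes in some fits. The state rests on 1 EGFP library, and 1 rM3Ds library lies outside it, so each within-state value has an arm of 1 library, and levels under about the floor of 3 counts are not resolved.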

Other observations

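The libraries rM3Ds 2 and rM3Ds 3 differed from EGFP 1 as well as sharing its state. The genes of this paragraph were chosen after their values were seen. The posterior homeobox genes Hoxa3, Hoxa4, Hoxa5 and Hoxa7, which mark hindbrain and spinal cord positions in development, were at 10.1, 6.6, 7.04 and 7.7 CPM in rM3Ds 2 and at 10.5, 5.48, 7.35 and 7.91 CPM in rM3Ds 3. In the other 10 libraries of the 90 min experiment, rM3Ds 1 and EGFP 1 included, they reached at most 0.369, 0.372, 0.105 and 0.426 CPM. Of the genes tested, 16 were at least 4-fold higher in both of these libraries than in any of the other 10, among them S100b, Tril, Pcdhb7, Pcdh10, Cxcl14 and Slco1c1, and 1 was at least 4-fold lower in both than in any other. Tril, an astrocyte gene that modulates Toll-like receptors, was at 21.6 and 28.3 CPM there and at 2.63 to 4.22 CPM elsewhere. The library EGFP 1 stood alone in turn, with 7 genes at least 4-fold above all other 11 libraries, among them Penk, Scg2 and Aspa, and 3 at least 4-fold below them, Lcn2, C3 and Steap4. A term for 1 shared state therefore leaves these differences in the comparison.

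Genes of brain position were also checked against the label cortical. En1 and En2, homeobox genes of the midbrain and anterior hindbrain, were at 97.1 to 129 and 527 to 967 CPM over the 12 libraries. Emx1 and Emx2, of the dorsal telencephalon, reached at most 0.369 and 0.665 CPM. The origin of these levels was not tested.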
